A study of Mus musculus with 6 samples.

Results

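The genes described are 10 members of the tumour necrosis factor (TNF) superfamily, read in mouse regulatory T cells that carried 1 or 2 gfp alleles at the locus of the transcription factor Blimp-1. All probes whose symbol, from the platform annotation and brought up to RefSeq, was one of these 10 names were taken. This gave 17 of the 46632 probes and 10 of the 17711 genes that carried a single symbol. They are 7 receptors (Tnfrsf18, Tnfrsf4, Tnfrsf9, Tnfrsf1b, Tnfrsf25, Cd27 and Fas) and 3 ligands (Tnfsf11, Tnfsf8 and Ltb). The groups were Blimp1 +/gfp and Blimp1 gfp/gfp, each with 3 arrays of regulatory T cells from C57/B6 bone marrow. By the sample titles the regulatory T cells of both groups carried at least 1 gfp allele, so neither group was wild type. The gfp allele is known as a green fluorescent protein reporter inserted in Prdm1, the gene of Blimp-1, that makes no functional Blimp-1 protein. Age, sex, treatment, the gates of the cell sort, the number of animals per array and whether the cells came from chimeric mice are not stated in the labels. Because the labels do not say that the replicates came from separate animals, the p-values below cover only how far these samples spread, and that spread may be technical. The 3 arrays of each genotype were on a BeadChip of their own, so an effect of the BeadChip and one of the genotype cannot be told apart.

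TNF superfamily ligands are mostly membrane-bound trimers that cluster their receptors on a neighbouring cell. Most receptors of the costimulatory kind recruit TRAF adaptors and activate NF-kappaB, whereas those with a death domain, such as Fas, can recruit FADD and caspase-8. Regulatory T cells are known for high surface GITR, OX40, 4-1BB and TNFR2, and signals through these receptors affect their proliferation, survival and suppressive activity, while Blimp-1 is a repressor that marks effector regulatory T cells.

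Of the 10 genes, 3 receptors (Tnfrsf9, Tnfrsf18 and Cd27) fell and 1 ligand (Tnfsf11) rose in Blimp1 gfp/gfp samples, and their promoter sequences are shown first because these 4 are the genes that passed the test. The promoter of Ltb is shown with them because it alone among the 10 genes held matches to both motifs searched. RefSeq promoter windows of build GRCm38.p6, from 250 bases before the annotated start to 50 bases after it, were found for all 10 genes, which have 12 windows in all. The 250 bases before the start lie at chr4:156026072-156026321 (plus strand) for Tnfrsf18, at chr4:150927749-150927998 (plus strand) for the second of the 2 starts of Tnfrsf9, at chr6:125237028-125237277 (minus strand) for Cd27, at chr14:78308044-78308293 (minus strand) for Tnfsf11 and at chr17:35194257-35194506 (plus strand) for Ltb. Each is written 5′ to 3′ on the strand of its gene, with matches to either motif in capitals.
Tnfrsf18: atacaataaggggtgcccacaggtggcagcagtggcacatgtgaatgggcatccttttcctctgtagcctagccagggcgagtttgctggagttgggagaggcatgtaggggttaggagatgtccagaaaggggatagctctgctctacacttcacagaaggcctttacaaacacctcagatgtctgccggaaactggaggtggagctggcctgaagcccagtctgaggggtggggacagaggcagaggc
Tnfrsf9, second start: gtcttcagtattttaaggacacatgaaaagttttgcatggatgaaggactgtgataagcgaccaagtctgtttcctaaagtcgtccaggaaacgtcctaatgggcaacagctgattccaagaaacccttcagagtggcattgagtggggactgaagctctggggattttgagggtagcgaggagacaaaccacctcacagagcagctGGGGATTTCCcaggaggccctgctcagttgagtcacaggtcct
Cd27: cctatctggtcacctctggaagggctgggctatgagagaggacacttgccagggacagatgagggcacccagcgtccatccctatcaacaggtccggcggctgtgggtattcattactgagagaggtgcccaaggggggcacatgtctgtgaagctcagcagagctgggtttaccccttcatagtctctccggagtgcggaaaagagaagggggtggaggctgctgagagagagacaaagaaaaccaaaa
Tnfsf11: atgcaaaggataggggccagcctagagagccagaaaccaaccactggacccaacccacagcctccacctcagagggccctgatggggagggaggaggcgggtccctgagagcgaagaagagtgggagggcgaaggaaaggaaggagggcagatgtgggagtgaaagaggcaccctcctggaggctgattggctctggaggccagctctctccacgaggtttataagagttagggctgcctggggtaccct
Ltb: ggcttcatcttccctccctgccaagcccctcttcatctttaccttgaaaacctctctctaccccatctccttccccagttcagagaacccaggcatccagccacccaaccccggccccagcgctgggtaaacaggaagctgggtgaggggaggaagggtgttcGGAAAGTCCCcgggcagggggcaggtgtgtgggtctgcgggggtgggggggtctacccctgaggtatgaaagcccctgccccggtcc

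The motifs were GAAAGT, the core of the sequence that Blimp-1 is known to bind, and GGGNNNTTCC, a form of the NF-kappaB site, each searched on both strands. GAAAGT was in 14.3% of all 32851 windows of the RefSeq table and in 2 of the 12 windows here, those of Ltb and Fas. In Ltb the match began 86 bases before the start, inside GGAAAGTCCC, a match to the NF-kappaB motif on the opposite strand that began 87 bases before it, so these are 1 stretch of letters counted under both motifs. In Fas it began 178 bases before the start on the opposite strand. The NF-kappaB form was in 5.56% of all windows and in 3 of the 12, namely Ltb, the second start of Tnfrsf9 (GGGGATTTCC, 43 bases before the start) and the first start of Tnfrsf25 (GGAAAAGCCC, 218 bases before it, on the opposite strand). The windows of Tnfrsf18, Cd27 and Tnfsf11 printed above have no capitals, since neither motif matched there. On mouse chromosome 4, Tnfrsf4 and Tnfrsf18 are adjacent coding genes on it, as are Tnfrsf1b and Tnfrsf8.

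Among the 6 arrays, 2 stood apart. Blimp1 +/gfp replicate 3 had the highest summed level of antigen-presenting and myeloid cell markers. Blimp1 gfp/gfp replicate 1 had the lowest summed level of regulatory T cell markers and of T cell markers, and the highest of B and plasma cell markers. The counts without either array are given after the genes. Across the family, 3 of 10 genes fell past the threshold (an adjusted p under 0.05 by limma, with Benjamini-Hochberg adjustment) against 1.69% of the 8743 genes tested, and 1 of 10 rose against 2.42%. The other 6 did not pass. The 10 genes were chosen with earlier results of these data known. Their shares and those of their probes are therefore a description beside the share of all genes, not a test of the family. In 6 genes every Blimp1 gfp/gfp array was below every Blimp1 +/gfp array (Tnfrsf18, Tnfrsf4, Tnfrsf9, Tnfrsf1b, Cd27 and Ltb), where 10.4% of all genes tested were separated that way, and in 2 genes every one was above (Tnfrsf25 and Tnfsf11), where 15.4% of all genes were. The median log2 difference of the 10 genes was -0.44, beside 0.03 over all genes tested. Among the 7 receptors the median was -0.53, with 3 lower and 0 higher past the threshold, and among the 3 ligands it was 0.99, with 1 higher and 0 lower. Where p was under 0.05 before adjustment, 5 receptors were lower and 1 higher, and 1 ligand was lower and 2 higher, beside 7.22% of all genes lower and 11.3% higher. All 10 genes were detected on all 6 arrays by the probe that represents them, so none entered through 1 genotype alone. A level here is a log2 intensity after background correction and quantile normalization, and a difference is Blimp1 gfp/gfp minus Blimp1 +/gfp on that scale. In these bulk samples, fewer cells of a type and less RNA per cell cannot be told apart.

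**Figure D1:**
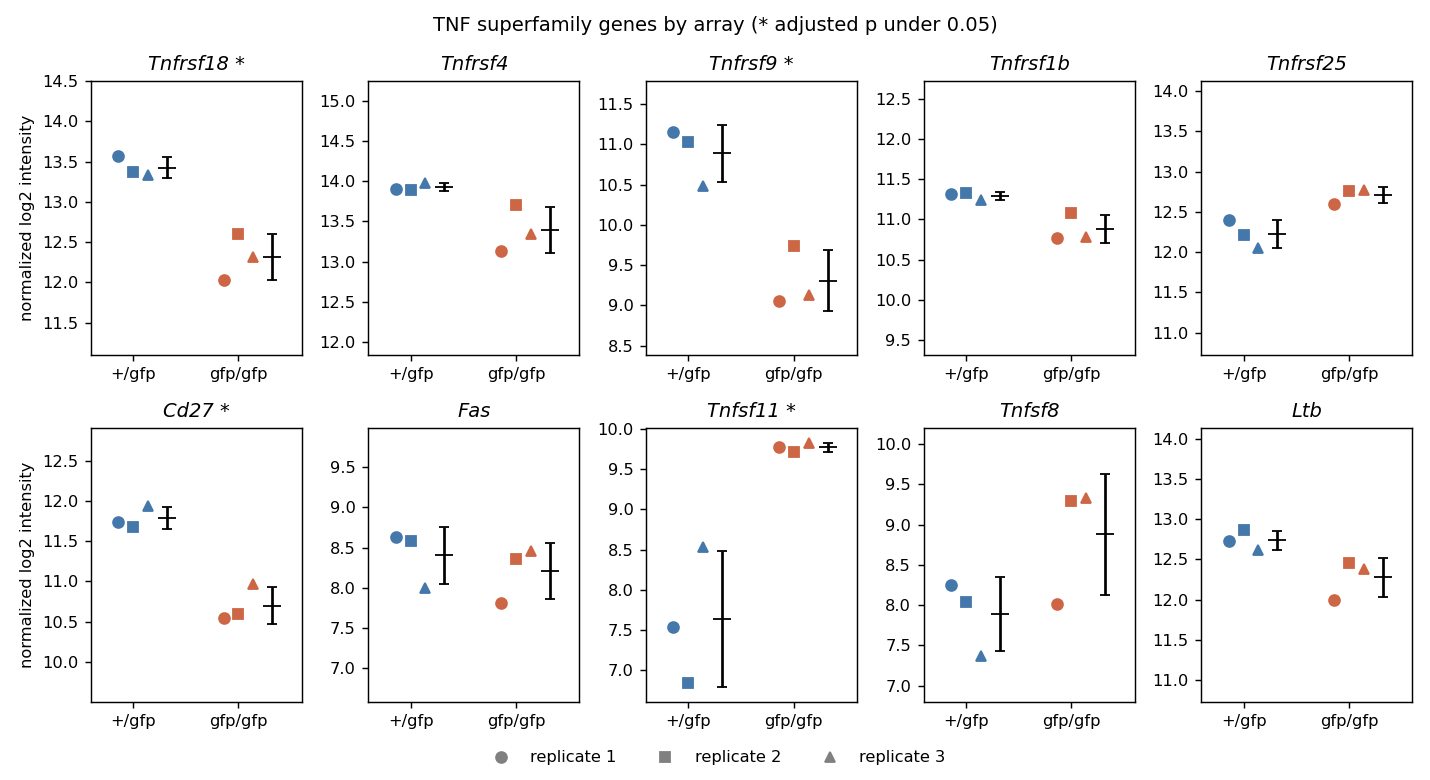
Normalized log2 intensity of the 10 TNF superfamily genes on each array, by genotype, with marker shapes for replicates 1 to 3 and black bars for the mean ± SD of 3 arrays, and an asterisk where the adjusted p was under 0.05. The Blimp1 gfp/gfp arrays sit below all Blimp1 +/gfp arrays for Tnfrsf18, Tnfrsf9 and Cd27 and above them for Tnfsf11, while the genotypes overlap for Fas and Tnfsf8.

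Tnfrsf18 encodes GITR, a costimulatory receptor that regulatory T cells carry at high level. Its log2 level was 13.57, 13.37 and 13.33 on Blimp1 +/gfp replicates 1, 2 and 3 and 12.03, 12.60 and 12.31 on Blimp1 gfp/gfp replicates 1, 2 and 3. The groups were separated by a gap of 0.73, with replicate 1 the lowest of the gfp/gfp arrays. The difference was -1.11 ± 0.18 (SE, n = 3 and 3), which is 2.16-fold lower with a 95% interval of 1.596 to 2.92 (limma adjusted p = 0.0242). The second Tnfrsf18 probe differed by -1.12, with an adjusted p over all kept probes of 0.0621 where the first probe had 0.0314. The call ended when Blimp1 +/gfp replicate 1 (adjusted p = 0.0966) or 2 (0.0943), or Blimp1 gfp/gfp replicate 1 (0.0576) or 3 (0.0986), was left out. It also ended without both Blimp1 +/gfp replicate 3 and Blimp1 gfp/gfp replicate 1 (0.0519) and under median scaling of the arrays (0.0704), and the 19 other ways of processing gave differences of -0.96 to -1.27.

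Tnfrsf9 encodes 4-1BB (CD137), a costimulatory receptor induced by T cell activation, and had the lowest difference of the 10 genes. Its level was 11.15, 11.03 and 10.48 in the +/gfp arrays against 9.05, 9.74 and 9.13 in the gfp/gfp arrays, in replicate order. All gfp/gfp arrays lay at least 0.74 below the +/gfp arrays, whose replicate 3 was the lowest. The difference was -1.58 ± 0.26, or 2.99-fold lower with a 95% interval of 1.95 to 4.58 (limma adjusted p = 0.0238). A second Tnfrsf9 probe was not detected on any array and gives no difference. Leaving out Blimp1 +/gfp replicate 1 (adjusted p = 0.0966) or 2 (0.101), or Blimp1 gfp/gfp replicate 1 (0.0692) or 3 (0.0982), ended the call, and 13 of 13 other ways of processing the arrays kept it.

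Cd27, whose product binds CD70 and supports T cell survival, read 11.73, 11.68 and 11.94 in the +/gfp arrays against 10.54, 10.59 and 10.96 in the gfp/gfp arrays. The groups were 0.72 apart at their nearest arrays, and replicate 3 was the highest in both. The difference was -1.08 ± 0.17, or 2.12-fold lower with a 95% interval of 1.61 to 2.80 (limma adjusted p = 0.0199). It had 1 probe. The call was lost without Blimp1 +/gfp replicate 1 (adjusted p = 0.0758) or 2 (0.0751) and without Blimp1 gfp/gfp replicate 1 (0.0599) or 2 (0.0818), and without both Blimp1 +/gfp replicate 3 and Blimp1 gfp/gfp replicate 1 (0.0667).

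Tnfrsf4 and Tnfrsf1b encode OX40 and TNFR2, both receptors of effector regulatory T cells, and neither passed the test. Tnfrsf4 read 13.91, 13.89 and 13.98 in the +/gfp arrays against 13.13, 13.70 and 13.35 in the gfp/gfp arrays, a difference of -0.53 ± 0.18 (95% interval -0.95 to -0.11, limma adjusted p = 0.169). Tnfrsf1b read 11.31, 11.32 and 11.24 against 10.76, 11.08 and 10.79, a difference of -0.42 ± 0.15 (95% interval -0.76 to -0.07, adjusted p = 0.185). In both genes the groups did not overlap and the gfp/gfp replicate 2 was the nearest to the +/gfp arrays. The 3 probes of Tnfrsf1b disagreed: the 2 that do not represent it differed by 0.34 and -0.01, and the mean over its probes differed by -0.03. Under median scaling of the arrays the Tnfrsf1b difference was -0.25.

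Tnfrsf25 encodes DR3, a receptor with a death domain through which TL1A is known to expand regulatory T cells. Unlike the other 6 receptors it had a positive difference, with levels of 12.40, 12.21 and 12.05 in the +/gfp arrays against 12.60, 12.75 and 12.78 in the gfp/gfp arrays. All gfp/gfp arrays were above all +/gfp arrays, by 0.20 at the nearest. The difference of 0.49 ± 0.15 did not pass (95% interval 0.13 to 0.85, limma adjusted p = 0.136). A second Tnfrsf25 probe read 8.20, 7.81 and 7.63 against 7.34, 9.11 and 8.71. The genotypes overlapped on this probe, which differed by 0.50 ± 0.45 (limma adjusted p over all kept probes = 0.666). The adjusted p of the gene was 0.0368 with array weights in the fit and 0.412 for the mean over its probes.

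Fas encodes the death receptor CD95. It read 8.63, 8.58 and 7.996 in the +/gfp arrays against 7.81, 8.36 and 8.46 in the gfp/gfp arrays, so the genotypes overlapped, with 1 low array in each. The difference was -0.19 ± 0.25 (95% interval -0.79 to 0.40, limma adjusted p = 0.759), and its sign rested on Blimp1 gfp/gfp replicate 1, without which it was 0.0044. Both other Fas probes were not detected on any array.

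Tnfsf11 encodes RANKL, the ligand that drives osteoclast formation in bone and takes part in lymphoid organ development. Its level was 7.54, 6.84 and 8.53 in the +/gfp arrays against 9.78, 9.71 and 9.82 in the gfp/gfp arrays. The gfp/gfp arrays were close together and lay at least 1.18 above the +/gfp arrays, among which replicate 3 was the highest and replicate 2 the lowest. The difference was 2.13 ± 0.39, or 4.39-fold higher with a 95% interval of 2.29 to 8.38 (limma adjusted p = 0.0341). Among other settings, the adjusted p was above the threshold without Blimp1 +/gfp replicate 1 (0.122) or 2 (0.0766), without Blimp1 gfp/gfp replicate 1 (0.0913), 2 (0.102) or 3 (0.120), and at 0.0501 with no filter on dim probes. It had 1 probe, and its difference was 1.55 with no background correction.

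Tnfsf8 encodes CD30 ligand. Its level was 8.25, 8.04 and 7.37 in the +/gfp arrays against 8.01, 9.30 and 9.33 in the gfp/gfp arrays. Blimp1 gfp/gfp replicate 1 lay within the range of the +/gfp arrays and the other two above it. The difference of 0.99 ± 0.41 did not pass (95% interval 0.03 to 1.96, limma adjusted p = 0.259), although it did with array weights (0.0483) and without Blimp1 +/gfp replicate 3 and Blimp1 gfp/gfp replicate 1 together (0.0266).

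Ltb encodes lymphotoxin beta, which with lymphotoxin alpha forms the membrane ligand of the lymphotoxin beta receptor. It read 12.73, 12.86 and 12.62 in the +/gfp arrays against 12.001, 12.45 and 12.38 in the gfp/gfp arrays. The groups did not overlap, with a gap of 0.16. The difference of -0.46 ± 0.17 did not pass (95% interval -0.86 to -0.05, limma adjusted p = 0.214), and it was -0.29 under median scaling.

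Of the 17 probes, 14 were detected on at least 3 of the 6 arrays and tested as probes. Among these 14, 3 fell past the threshold over all kept probes, against 1.42% of the 15800 kept probes, and 1 rose, against 1.83%. The 4 were the probes that represent Tnfrsf18, Tnfrsf9, Cd27 and Tnfsf11. By group means, the detected probes of Tnfrsf18 and Tnfrsf25 differed alike within each gene, though the genotypes overlapped on the second Tnfrsf25 probe. The detected probes of Tnfrsf1b differed in sign. The authors' deposited log2 values gave the same counts of probes, 3 lower and 1 higher.

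**Figure D2:**
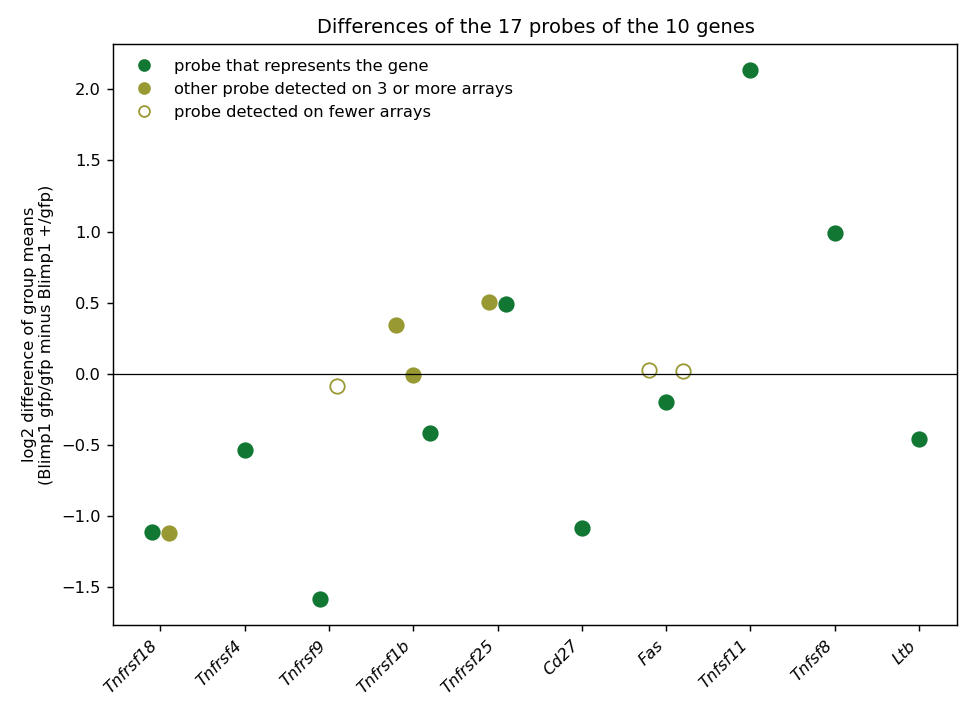
Difference of group means (log2, Blimp1 gfp/gfp minus Blimp1 +/gfp) for each of the 17 probes of the 10 genes, in green for the probe that represents the gene, in olive for other probes, and open where a probe was detected on fewer than 3 arrays. The 2 Tnfrsf18 probes sit together at -1.11 and -1.12 and the 2 Tnfrsf25 probes at 0.49 and 0.50, while the 3 Tnfrsf1b probes run from -0.42 to 0.34.

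Known binding partners of the 10 genes were then read on the same arrays. Of 12 partners, 5 were detected on all 6 arrays, 4 on 1 or 2 arrays and 3 on none. The ligands of GITR (Tnfsf18), OX40 (Tnfsf4), 4-1BB (Tnfsf9) and DR3 (Tnfsf15) were detected on 2, 0, 2 and 0 arrays, in that order. The receptor of RANKL (Tnfrsf11a) was detected on 1 array, its decoy receptor osteoprotegerin (Tnfrsf11b) on 0 and the lymphotoxin beta receptor (Ltbr) on 1. So none of these 7 partners entered the test, although the members themselves were detected on every array.

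The partner of CD30 ligand is CD30, encoded by Tnfrsf8, which rose. Its level was 6.50, 6.38 and 6.52 in the +/gfp arrays against 7.81, 8.14 and 7.95 in the gfp/gfp arrays, so the groups were far apart relative to their spread. The difference was 1.497 ± 0.15 (limma adjusted p = 0.00596), it passed in 19 of 19 other ways of processing the arrays, and it was 0.78 with no background correction and 0.96 with an added offset of 50. Of the 3 Tnfrsf8 probes, 1 was detected on all 6 arrays and is the one described. The others were detected on fewer than 3 arrays and differed by 0.39 and 0.07. On the +/gfp arrays the raw intensity of the described probe was 218.8 to 221.1, near background, where array medians were 157.4 to 162.1. Fasl, which encodes the ligand of Fas, read 11.22, 11.25 and 10.20 against 8.90, 8.43 and 9.997, a difference of -1.78 ± 0.46 that did not pass (adjusted p = 0.0902). Here the lowest +/gfp array was replicate 3 and the highest gfp/gfp array was replicate 3. Tnf (-0.91 ± 0.31, adjusted p = 0.176), Lta (-0.33, 0.739) and the CD27 ligand gene Cd70 (-0.08, 0.949) did not pass either.

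In the rest of the family, 11 of 21 other receptors and 9 of 15 other ligands were tested. Of the other receptors, 1 fell and 1 rose, beside 1.69% and 2.42% of all genes tested. At an unadjusted limma p under 0.05, 2 were lower and 3 higher, beside 7.22% and 11.3% of all genes. In 1 receptor every gfp/gfp array was below every +/gfp array and in 4 every one was above, beside 10.4% and 15.4%. Their median difference was 0.02. The one that fell was Tnfrsf1a, the death-domain receptor TNFR1, at 10.77, 10.78 and 11.02 against 9.89, 9.61 and 10.19, a difference of -0.96 ± 0.19 (limma adjusted p = 0.0394). The adjusted p of Tnfrsf1a was 0.0640 to 0.120 in each of the 6 fits that left out 1 array, 0.0526 under median scaling, 0.0514 with no filter on dim probes, 0.105 when arrays were scaled to the Cd3 genes and 0.116 without both Blimp1 +/gfp replicate 3 and Blimp1 gfp/gfp replicate 1. The one that rose, Tnfrsf8, was described above. Of the other ligands, 0 fell, 2 were lower at an unadjusted p under 0.05 and 1 rose, with a median of -0.33. It was Tnfsf14, which encodes LIGHT, a ligand of the lymphotoxin beta receptor and HVEM, at 8.91, 8.69 and 8.999 against 10.18, 9.67 and 10.51. The Tnfsf14 difference was 1.25 ± 0.23 (adjusted p = 0.0352), but 0.68 (0.159) as the mean over its 2 kept probes, and it passed in 1 of the 6 fits that left out 1 array, that without Blimp1 gfp/gfp replicate 2, with 0.0559 to 0.127 in the others. Without both Blimp1 +/gfp replicate 3 and Blimp1 gfp/gfp replicate 1 the adjusted p of Tnfsf14 was 0.0819.

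Adaptors and regulators downstream of the receptors were measured for 15 of the 19 genes listed (TRAF, TAB and cIAP proteins, FADD, TRADD, caspase-8, A20, CYLD and kinases of the pathway). By limma, 0 of the 15 passed in either direction, with 1 lower and 1 higher at an unadjusted p under 0.05. These were Birc2, which encodes the ubiquitin ligase cIAP1, at -0.50 ± 0.21 (adjusted p = 0.269), and Map3k14, which encodes NIK, the kinase of the alternative NF-kappaB pathway, at 0.39 ± 0.16 (adjusted p = 0.260). The median of the 15 was 0.02. Their differences ran from -0.50 to 0.43, beside -1.58 to 2.13 for the 10 genes above. Both sets were chosen with earlier results of these data known, so the ranges are given as a description.

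**Figure D3:**
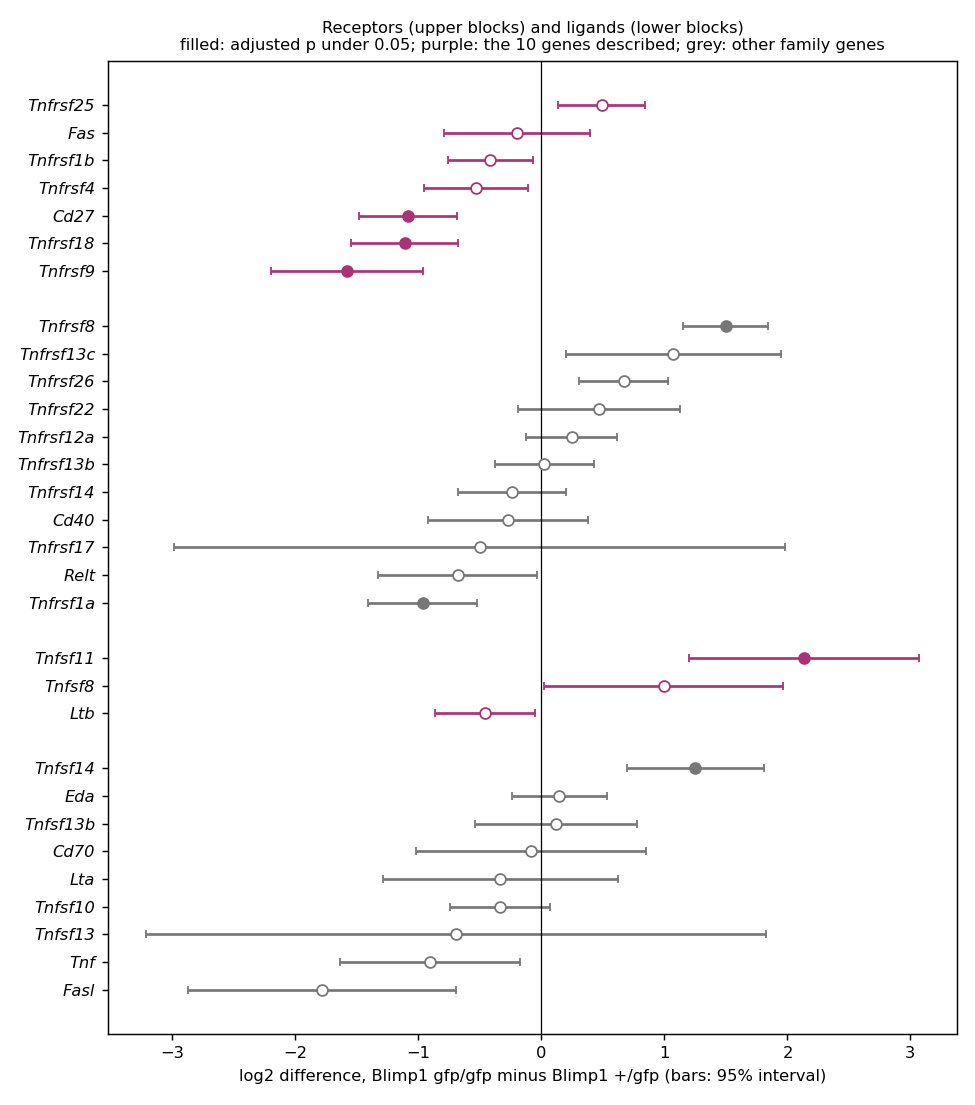
Log2 differences (Blimp1 gfp/gfp minus Blimp1 +/gfp) with 95% intervals for the tested receptors (upper blocks) and ligands (lower blocks), in purple for the 10 genes described and in grey for other family genes, filled where the adjusted p was under 0.05. Tnfrsf9, Tnfrsf18, Cd27 and Tnfrsf1a are filled on the left of 0, and Tnfsf11, Tnfrsf8 and Tnfsf14 on the right.

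The arrays of a genotype did not stand equal for these genes. Blimp1 gfp/gfp replicate 1 was the lowest of its genotype for 9 of the 10 genes, and it was the lowest for 31.3% of all genes tested and for 8 of 10 T cell and regulatory T cell markers. Blimp1 +/gfp replicate 3 was the lowest of its genotype for 7 of the 10 genes and for 43.9% of all genes. The samples were checked against their label: 4 of 4 regulatory T cell markers (Foxp3, Il2ra, Ctla4 and Ikzf2) and the 6 T cell markers with a probe were detected on all 6 arrays, and 0 of these 10 passed the limma test, with 2 T cell markers lower at an unadjusted p under 0.05. Such detection does not measure purity, and the CD8 T cell marker Cd8b1 was also detected on all 6 arrays, at 11.13 to 12.03. Foxp3, which defines the lineage, differed by -0.28 ± 0.30 (adjusted p = 0.696). The other 3 regulatory T cell markers also had negative differences, -0.30 for Ctla4, -0.50 for Il2ra and -0.71 for Ikzf2, so the median of the 4 was -0.40 beside -0.44 for the 10 genes. The summed level of the regulatory T cell markers was 18191 to 21452 in the +/gfp arrays against 11781, 18882 and 17183 in the gfp/gfp arrays, the lowest on the same gfp/gfp replicate 1. Scaling each array to the mean of Cd3e, Cd3d and Cd3g left 3 of the 10 genes lower and 1 higher past the threshold. Of all 8743 genes tested, 95 were then lower and 205 higher past it, beside 148 and 212 without this scaling.

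Markers of other cell types moved between arrays as well. The 7 antigen-presenting cell markers summed to 69283 in Blimp1 +/gfp replicate 3 and to 10962 to 18879 in the other 5 arrays, with Flt3 detected on none. The 9 myeloid markers with a probe summed to 2079, 3633 and 12507 in the +/gfp arrays against 2234, 1081 and 668 in the gfp/gfp arrays, with Itgam and Elane detected on none. The 6 B and plasma cell markers with a probe summed to 1058 to 2705 in +/gfp and 1441 to 3218 in gfp/gfp arrays. Their sum was highest on gfp/gfp replicate 1, and Pax5 and Sdc1 were detected on none. Cd79a was higher on every gfp/gfp array than on every +/gfp array. It differed by 1.91 ± 0.60 but did not pass (limma adjusted p = 0.146), and it was detected on 1 +/gfp and 3 gfp/gfp arrays. Cd79b differed by 0.26 and Blnk by -0.14, with overlap. The 5 CD8 and NK cell markers with a probe summed to 18877 to 23070 in +/gfp and 6710 to 15743 in gfp/gfp arrays, with Ncr1 detected on none. The brightest of them was Nkg7, which differed by -1.21. Cd8b1 differed by -0.14, while Eomes (0.78) and Klrb1c (0.59) went the other way. The part of these cells in the differences above was not tested, but the counts were recomputed without Blimp1 +/gfp replicate 3 (3 lower and 1 higher of the 10 genes), without Blimp1 gfp/gfp replicate 1 (0 and 0), and without both (1 and 2). In the same 3 fits 4.08%, 2.17% and 3.91% of all genes were called in either direction, beside 4.12% with all arrays. Without both, Tnfrsf9 (adjusted p = 0.0251) and Tnfsf11 (0.0103) stayed past the threshold, Tnfsf8 joined them, and Tnfrsf18 (0.0519) and Cd27 (0.0667) did not pass.

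**Figure D4:**
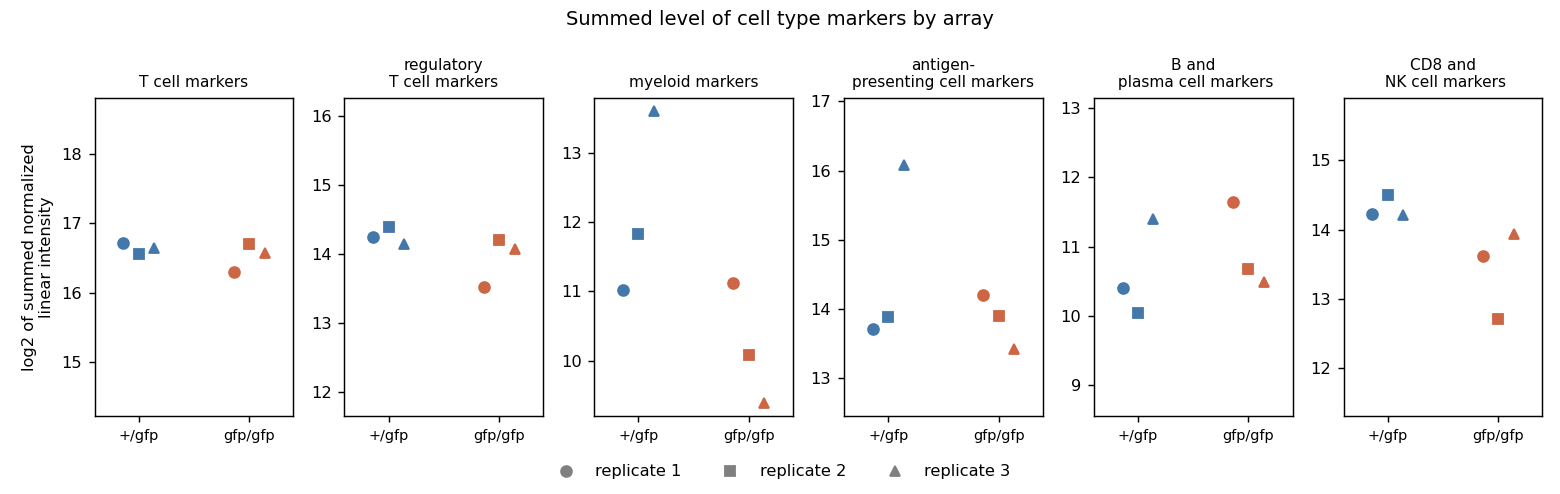
Log2 of the summed normalized linear intensity of 6 marker lists on each array, by genotype, with marker shapes for replicates 1 to 3. Blimp1 +/gfp replicate 3 is the highest array for antigen-presenting (69283) and myeloid (12507) markers. Blimp1 gfp/gfp replicate 1 is the lowest for regulatory T cell markers (11781) and the highest for B and plasma cell markers (3218).

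**Figure D5:**
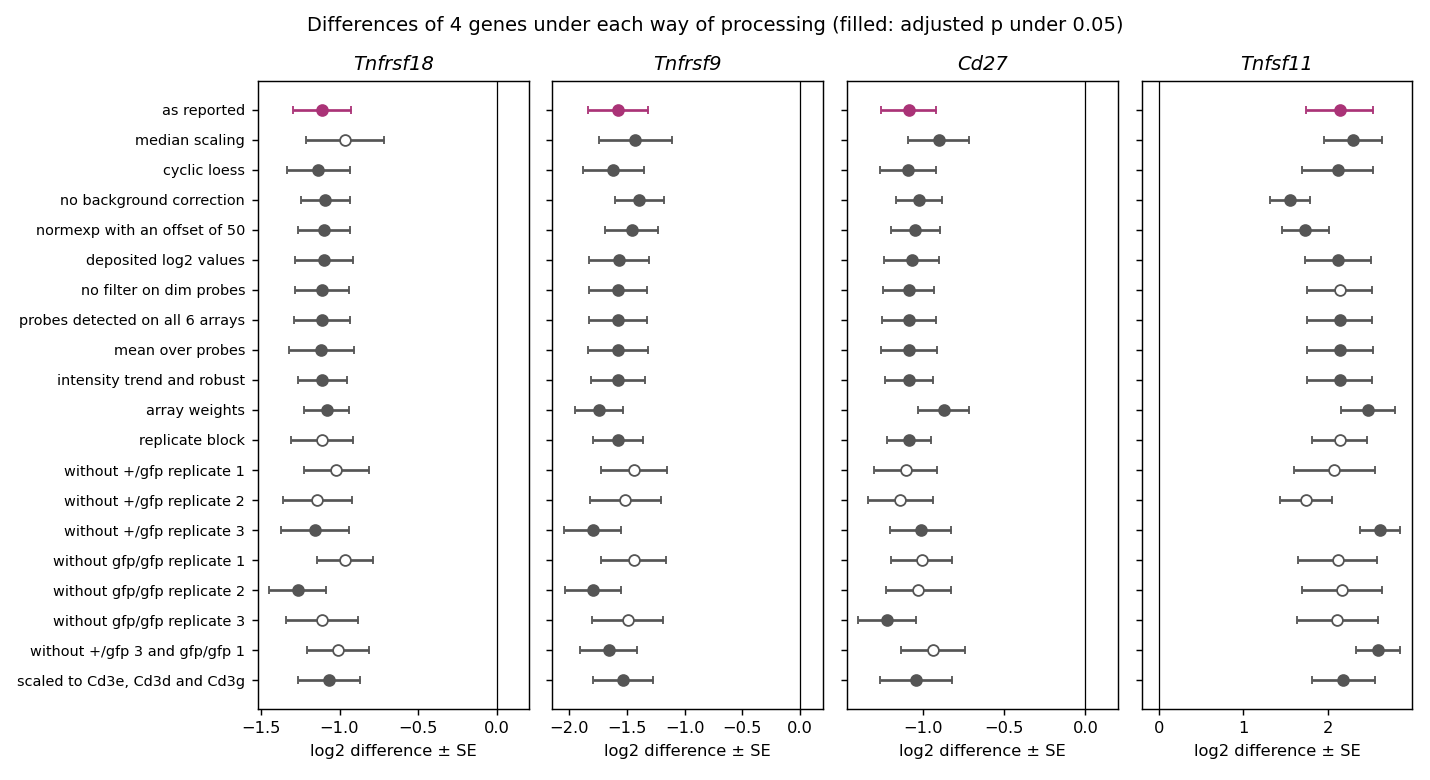
Log2 difference ± SE of Tnfrsf18, Tnfrsf9, Cd27 and Tnfsf11 as reported (purple, top) and under 19 other ways of processing the arrays or leaving arrays out, filled where the adjusted p was under 0.05. The sign is the same in every row for all 4 genes, and open points are mostly those that leave out 1 array.

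As a check of the arrays, 14694 to 16067 probes (31.5% to 34.5%) were detected per array, and arrays correlated with each other at 0.933 to 0.984 across genes, which are not independent replicates. With 3 arrays per genotype, precision is limited by their number. Prdm1 itself had 2 probes, which read 5.76, 5.82 and 5.496 against 7.14, 7.75 and 7.54, and 5.28, 6.64 and 5.89 against 5.64, 7.92 and 7.52. The first rose by 1.79 ± 0.21 (limma adjusted p over all kept probes = 0.0098) and the second differed by 1.09 ± 0.62 (0.462), but where these probes lie relative to the inserted reporter is not stated in the files or labels, so the Prdm1 level does not check the genotype labels.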

How the data were processed

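Regulatory T cell RNA of 2 genotypes, with 3 samples each, was hybridised to 1-colour Illumina BeadChips with Cy3 label, per the labels. The authors deposited the mean bead intensity of 46632 probes on a linear scale, which from its values had no background subtraction or normalization, and, per the file headers, a detection p-value for each. They also deposited log2 values, which differed from limma's neqc of the same intensities by at most 0.0975 (median 0.00293), with column medians of 5.234 to 5.236, and which served as an alternative. BeadStudio and limma are named in the submitters' processing notes, with versions and settings not given in the sources used here.

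The intensities were processed with neqc (limma 3.58.1, R 4.3.3): normexp with negative-control parameters inferred from detection p-values, then an added offset of 16, then quantile normalization and a log2 transform. The offset compresses differences of dim genes. A probe was kept where its detection p was under 0.05 on 3 or more of 6 arrays (15800 probes), and each gene was represented by its kept probe with the highest mean, which left 8743 genes. Symbols came from the platform annotation (29976 probes with 1 symbol, 10 with several, 16646 with none). For 29921 probes matched to RefSeq by Entrez identifier, the RefSeq symbol was used. Genotypes were compared with lmFit and eBayes, with Benjamini-Hochberg adjustment over all 8743 genes and a threshold of 0.05. The fit was run on simulated data drawn independently for each gene and array, with no BeadChip effect or mixture of cells. That run therefore cannot show how the fit handles such effects in these arrays. Marker levels were summed as linear normalized intensities of each gene's brightest probe.

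The members and lists were chosen with earlier results of these data known. All 10 members were named, with every other listed receptor or ligand past the threshold, the 2 adaptors with the smallest p, and the 2 tested genes most like each member past the threshold. Binding partners were named after the data were seen, whatever their values. Alternatives were other background corrections, normalizations, filters and probe summaries, an intensity trend with robust variances, array weights, a replicate block, the omission of each array, and the deposited log2 values. The joint omission of 2 arrays and the scaling to Cd3 genes were chosen after seeing the data. Promoter windows are from RefSeq (GRCm38.p6). Figures were drawn with matplotlib 3.10.9.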

Additional observations from a re-analysis of the deposited data

How the results depend on the processing

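Without 1 array at a time, the number of genes past the threshold ran from 71 to 347 in place of 360, that of the 10 members lower from 0 to 3 in place of 3, and that of members higher from 0 to 1 in place of 1. Both member counts were 0 without Blimp1 +/gfp replicate 1, Blimp1 +/gfp replicate 2 or Blimp1 gfp/gfp replicate 1, and fewer arrays per group were then compared. Array weights gave 827 genes and 3 members higher (Tnfsf11, Tnfrsf25 and Tnfsf8), and with no filter on dim probes 0 members and 0 member probes were higher. Without both Blimp1 +/gfp replicate 3 and Blimp1 gfp/gfp replicate 1, a setting chosen after seeing the data, 1 member was lower and 2 were higher. The Fas difference, -0.19 with all arrays, ran from -0.40 without Blimp1 +/gfp replicate 3 to 0.0044 without Blimp1 gfp/gfp replicate 1. Median scaling moved the median difference of all genes from 0.03 to 0.16 and the split of calls from 148 lower and 212 higher to 120 lower and 294 higher. Deviations from the group means correlated at 0.189, -0.0759 and 0.00102 between same-numbered samples, beside -0.148 to 0.165 between the others. So few values cannot settle whether the replicate numbers pair the samples. A replicate block gave 171 genes, 2 members lower (Tnfrsf9, adjusted p = 0.0486, and Cd27, 0.0448) and 0 higher, with Tnfrsf18 at 0.0835, Tnfsf11 at 0.0620 and, among the other receptors, Tnfrsf1a at 0.0624. Over the 19 alternatives the adjusted p ran from 0.00502 to 0.0986 for Tnfrsf18, from 0.00452 to 0.101 for Tnfrsf9, from 0.00440 to 0.0818 for Cd27 and from 0.00588 to 0.122 for Tnfsf11, each with 1 sign. Of the 13 alternatives that did not leave out a single array, 10, 13, 12 and 11 kept these calls, in that order. The causes were not tested. Partners detected on fewer than 3 arrays have no tested difference.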

Other observations

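Genes whose pattern over the 6 arrays was most like that of a member were found by the root mean square difference of log2 values after each gene was centred on its own mean. For Cd27 they were Il10ra (0.0813), a subunit of the interleukin 10 receptor, and Rftn2 (0.0854). For Tnfrsf18 they were Trex1 (0.112), a cytosolic DNA exonuclease, and Lipo3 (0.118). For Tnfrsf9 they were Msrb3 (0.149), a methionine sulfoxide reductase, and Ccn4 (0.205), and for Tnfsf11 they were Slc7a10 (0.238), an amino acid transporter, and Npas4 (0.247). The median over all other genes was 0.637, 0.651, 0.894 and 1.19 for Cd27, Tnfrsf18, Tnfrsf9 and Tnfsf11. Among the pairs of members, Tnfrsf4 and Tnfrsf1b were the nearest (0.111), then Ltb and Tnfrsf1b (0.117), and the pair furthest apart was Tnfrsf9 and Tnfsf11 (1.99). All these values share the same 6 arrays and are given as a description.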
